A study of Mus musculus with 23 samples.

Results

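The hippocampus of female mouse pups with moderate anemia was compared with that of female pups that were not bled. The comparison took 8 of the 23 libraries of the series, picked by their group labels: the 4 females of the non-bled control group (NBC) and the 4 females of the moderate phlebotomy-induced anemia group (mPIA). It covered every gene counted above a low-count filter. The comparison itself was chosen with earlier results of these data known. The series as a whole holds polyadenylated RNA from the hippocampus of pups of both sexes at 3 levels of anemia, which models blood loss through repeated sampling in preterm infants. NBC pups were only pricked with a needle at the nape. In mPIA pups blood was drawn from the facial vein from postnatal day 3, 2 draws a day of 5.25 µl per g, until the haematocrit (the part of the blood that is red cells, by volume) reached its goal of 25%. Draws of 3.5 µl per g then followed daily up to postnatal day 14, when all pups, NBC included, were killed and the hippocampus was taken. The sources used here name neither strain nor genotype, and no haematocrit of a single pup was used here. The design text names 4 animals of each sex per group, so each library was read as 1 pup.

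Blood loss lowers both the oxygen that reaches the brain and the iron left for it. Cells sense low oxygen through prolyl hydroxylases, which mark the hypoxia-inducible factors (HIF) for degradation while oxygen is present; when oxygen falls, HIF accumulates and binds short DNA motifs near genes for vessel growth, vessel tone and glucose use. The hippocampus forms its synapses, myelin and capillary bed in the weeks after birth, and in that period its neurons depend on a steady supply of iron and oxygen.

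Library totals lay between 15.2 and 20 M (mega-counts), apart from mPIA female 3 with 44.4 M. Replicates were not copies of each other (chi-square per degree of freedom of 3.09 or more for every pair). NBC female 2 stood at 28.4 on the first principal component, which held 23.05% of the variance, against -8.1 to 0.88 for the other 7 libraries. Its summed level over 15 choroid plexus markers was 2590 CPM (counts per mega-count of the library), against 166 to 231 in the remaining NBC libraries and 129 to 459 in mPIA. The libraries carried codes that began with 86, 90 or 91, each of them present in both groups, and the second component set NBC female 4 and mPIA female 4, the 2 libraries coded 91, at 18.9 and 16.7 against -10.3 to -0.58 for the rest. The sources used here do not say what the codes stand for.

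The 2 groups were close to each other over most of the transcriptome. Of 14680 genes tested, 2 passed an adjusted p of 0.05 (0.0136%), and both were higher in mPIA: Adm, the gene of the vasodilator peptide adrenomedullin, and Cxcl12, the gene of a chemokine that guides migrating neurons and vessel cells. Genes were tested by quasi-likelihood in edgeR, with Benjamini-Hochberg adjustment over all genes. The median log2 change was 0.00, 75.8% of genes lay within 0.1 of 0, and the biological coefficient of variation between pups was 7.69%. An unadjusted p under 0.05 was reached by 298 genes (2.03%), 184 of them higher (1.25%) and 114 lower (0.777%) in mPIA. In 218 genes (1.49%) the 4 values of one group all lay on one side of the 4 values of the other, with mPIA above in 127 (0.865%) and below in 91 (0.62%). Both shares, 2.03% and 1.49%, were below those that chance alone would give, so neither count is by itself a sign of a difference. With the start of the library code (86, 90 or 91; the code prefix) as a block 6 genes passed: Adm, Cxcl12, Vegfa, Acer2, Tfrc and Slc2a1, all higher. In that fit 406 genes had an unadjusted p under 0.05. DESeq2 called 9 genes on the same counts, adding Vegfa, Acer2, Ankrd37, Adgrl4, the predicted gene 8430408G22Rik, Aqp4 and Aplnr, the last 2 of them lower.

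The stretches before the start sites of 4 genes are shown because 3 of the 4 belong to the HIF target list and Cxcl12 is the other gene that passed. Each is the 250 bases upstream of a RefSeq start (build GRCm38.p6), read on the gene's own strand. Capitals mark the letters ACGTG or GCGTG, the core to which HIF binds, on either strand, so that CACGT and CACGC are the same letters read from the other strand; overlapping matches share capitals.
Adm, chr7:110627407-110627656, + strand: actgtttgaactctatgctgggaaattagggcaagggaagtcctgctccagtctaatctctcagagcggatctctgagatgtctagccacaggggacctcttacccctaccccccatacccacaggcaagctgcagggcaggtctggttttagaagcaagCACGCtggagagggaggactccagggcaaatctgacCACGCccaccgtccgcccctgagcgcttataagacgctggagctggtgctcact
Ankrd37, chr8:45999851-46000100, - strand: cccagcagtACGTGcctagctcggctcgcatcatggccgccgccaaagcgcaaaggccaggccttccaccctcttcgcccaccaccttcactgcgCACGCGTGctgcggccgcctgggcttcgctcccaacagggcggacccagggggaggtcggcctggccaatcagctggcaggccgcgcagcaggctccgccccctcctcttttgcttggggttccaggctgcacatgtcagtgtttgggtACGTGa
Vegfa, chr17:46032378-46032627, - strand: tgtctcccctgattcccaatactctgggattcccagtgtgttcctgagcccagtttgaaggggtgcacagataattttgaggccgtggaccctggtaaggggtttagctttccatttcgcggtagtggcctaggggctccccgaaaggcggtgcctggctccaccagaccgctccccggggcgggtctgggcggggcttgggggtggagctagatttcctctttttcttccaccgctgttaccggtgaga
Cxcl12, chr6:117168285-117168534, + strand: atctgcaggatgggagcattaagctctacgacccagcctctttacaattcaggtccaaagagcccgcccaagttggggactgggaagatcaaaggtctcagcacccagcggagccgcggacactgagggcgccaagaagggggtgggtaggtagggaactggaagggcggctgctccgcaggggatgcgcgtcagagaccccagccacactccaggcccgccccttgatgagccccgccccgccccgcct
The Adm stretch held 2 matches, beginning 90 and 54 bases before the start, and the Ankrd37 stretch held 4. The Vegfa and Cxcl12 stretches held 0, while a second RefSeq start of Vegfa had 2 matches upstream of it (chr17:46025164-46025413). Such letters are common: 60.2% of the 11097 tested genes with a RefSeq window held them before at least 1 of their starts, and 90.3% (28 of 31 matched) of the HIF target list did. A match is a description of the sequence and not evidence of binding.

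Adm (chromosome 7, 110627661 to 110629820, + strand, mm10) stood at 1.62, 1.25, 1.16 and 1.58 CPM in NBC females 1 to 4. In mPIA females 1 to 4 it stood at 2.85, 3.26, 4.37 and 4.27 CPM. The groups did not overlap, and the lowest mPIA pup lay well above the highest NBC pup. Mean levels were 1.40 ± 0.232 CPM (SD, n = 4) and 3.69 ± 0.749 CPM (SD, n = 4), a 2.66-fold rise (log2 change 1.41, SE 0.20, edgeR adjusted p = 0.0224). The gene was weakly expressed, with 21 to 27 counts in an NBC library and 56 to 195 in an mPIA library. Within the code prefixes 86, 90 and 91 the log2 differences were 1.05, 1.83 and 1.38, so the direction was the same in each. The call was lost when NBC female 1, 2 or 3, or mPIA female 2 or 3, was left out. The edgeR adjusted p then lay above 0.05 (0.0512, 0.134, 0.231, 0.0649 and 0.132). Log2 changes ran from 1.30 to 1.52 over all 8 omissions.

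Adrenomedullin acts through the receptor Calcrl paired with an accessory protein, Ramp2 or Ramp3, and Ackr3 takes it up as a decoy. None of these receptor genes passed: log2 changes were -0.05 (SE 0.09) for Calcrl, 0.15 (SE 0.08) for Ramp2, 0.27 (SE 0.25) for Ramp3 and -0.01 (SE 0.10) for Ackr3. Of the 8 members of the adrenomedullin list that were tested, 6 were higher, with a median of 0.11 (0.01 without mPIA female 1). Ramp2 counts may include reads of Vps25, whose exons it overlaps.

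Cxcl12 (chromosome 6, 117168535 to 117181367, + strand) stood at 71.6, 65.4, 73.2 and 62.0 CPM in NBC and at 99.9, 90.2, 89.7 and 89.9 CPM in mPIA. The 2 sets did not overlap, and mPIA female 1 was the highest. Means were 68.0 ± 5.26 CPM (SD, n = 4) and 92.4 ± 4.98 CPM (SD, n = 4), a 1.36-fold rise (log2 change 0.44, SE 0.06, edgeR adjusted p = 0.0224). Its receptor Cxcr4 had a log2 change of -0.08 (SE 0.11), and its scavenger receptor Ackr3, which also binds adrenomedullin, is given above. The call of Cxcl12 was lost when any 1 of the same 5 libraries as for Adm was left out. Its edgeR adjusted p then lay above 0.05 (NBC female 1: 0.0512, 2: 0.134, 3: 0.0529; mPIA female 2: 0.0649, 3: 0.122), and in a fit that took its spread from all 23 libraries it was 1.

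**Figure D1:**
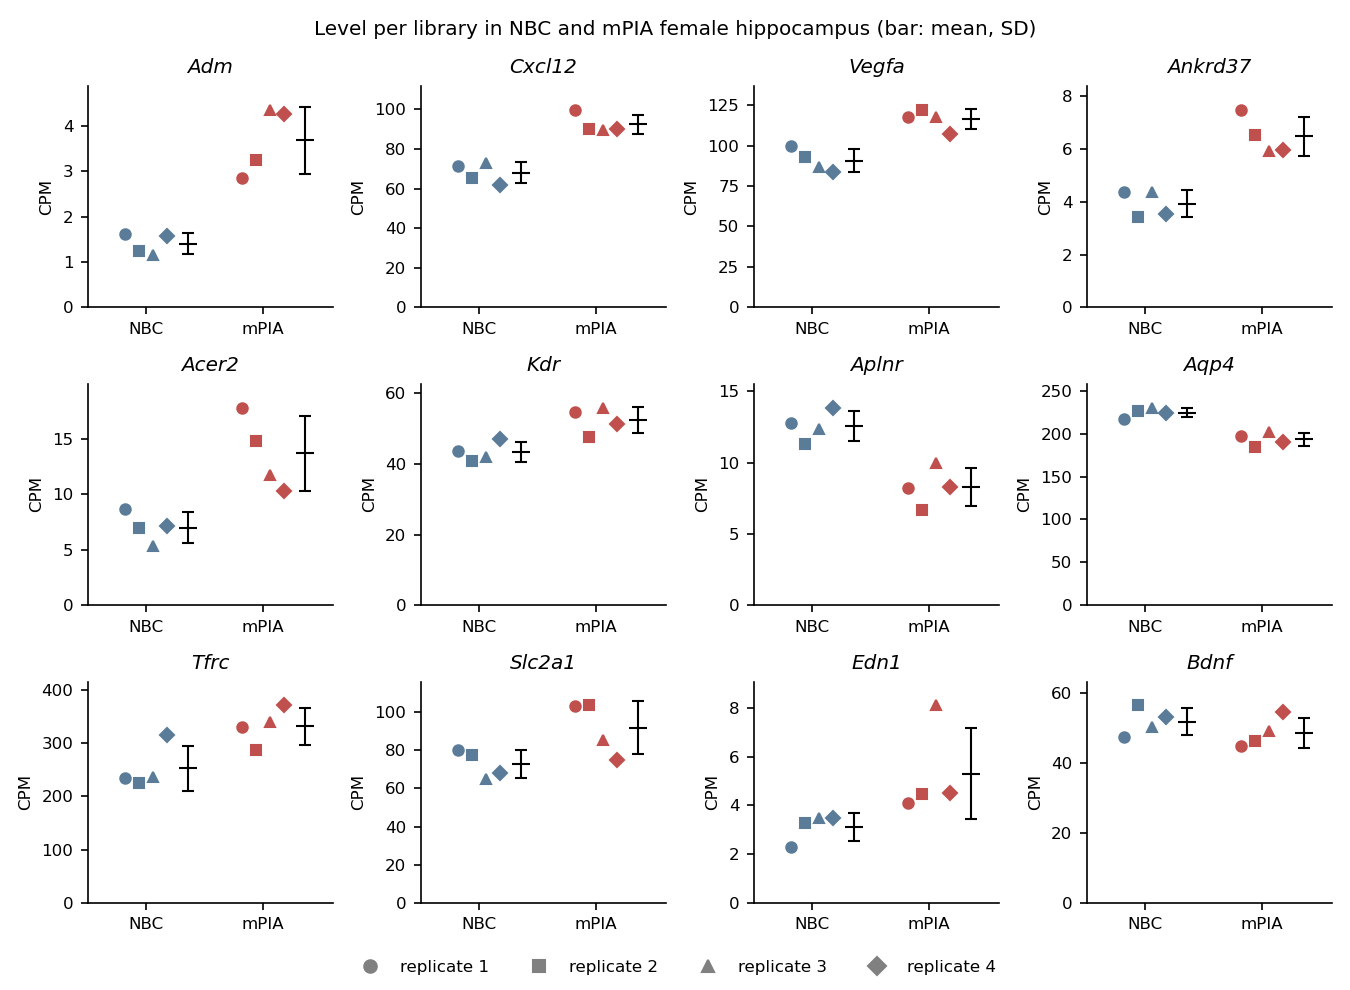
Level in CPM (vertical axes, from 0) of 12 genes in each NBC (blue) and mPIA (red) female library, with the replicate number as the symbol and the mean and SD (n = 4) in black. The mPIA libraries lie wholly above NBC for Adm, Cxcl12, Vegfa, Ankrd37, Acer2, Kdr and Edn1, wholly below for Aplnr and Aqp4, and overlap with it for Tfrc, Slc2a1 and Bdnf. Adm and Cxcl12 passed the adjusted threshold.

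HIF targets included 1 gene that rose, Adm. Of 38 listed targets 37 passed the filter; 27 of them were higher in mPIA, where 50.1% of all genes were, and their median log2 change was 0.05. An unadjusted p under 0.05 was reached by 7, all higher (1.25% of all genes were), and in 4 all mPIA values lay above all NBC values (0.865% of all genes). By role, the 5 genes of vessel tone and growth had a median of 0.36 and the 12 of glucose use one of 0.02; the difference between roles was not tested. Car9, a carbonic anhydrase, was below the filter.

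Vegfa, the main growth factor of endothelial cells, stood at 99.7, 93.2, 86.6 and 83.5 CPM in NBC and at 118, 122, 118 and 108 CPM in mPIA. No mPIA library fell within the NBC range, and the log2 change was 0.36 (SE 0.06), but the edgeR adjusted p was 0.103. It was called by DESeq2, by limma-voom (adjusted p = 0.0136), without a low-count filter, with the code prefix as a block (0.00596) and without mPIA female 4 (0.0471). Edn1, the vasoconstrictor endothelin 1, stood at 2.28, 3.27, 3.47 and 3.48 CPM in NBC and at 4.10, 4.48, 8.11 and 4.51 CPM in mPIA. The groups did not overlap, yet mPIA female 3 held much of the difference: the log2 change of 0.81 (SE 0.23, adjusted p = 1) was 0.48 without it. Angptl4, an inhibitor of lipoprotein lipase, had a log2 change of -0.05 with overlapping groups.

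Ankrd37, an ankyrin repeat gene used as a marker of HIF activity, stood at 4.39, 3.43, 4.36 and 3.55 CPM in NBC and at 7.50, 6.52, 5.93 and 5.98 CPM in mPIA. Every mPIA library was above every NBC library (log2 change 0.72, SE 0.14, adjusted p = 0.293). Its exons overlap those of Lrp2bp and Ufsp2 on the other strand, and without a stated strand setting their reads cannot be told apart. The prolyl hydroxylase genes Egln1 and Egln3, which HIF raises in a feedback loop, had log2 changes of 0.02 and 0.12 with overlapping groups.

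In the glucose group 7 of 12 genes were higher. Slc2a1, the glucose transporter of the blood-brain barrier, was at 80.4, 77.5, 65.1 and 67.9 CPM in NBC and at 103, 104, 85.4 and 75.1 CPM in mPIA. Only mPIA female 4 lay within the NBC range (log2 change 0.34, SE 0.11, adjusted p = 1), and Slc2a1 was called with the code prefix as a block (edgeR adjusted p = 0.0282). The glycolytic genes Pgk1, Ldha, Aldoa and Pfkfb3 had log2 changes of -0.03, 0.08, 0.02 and -0.02. The wider list of glycolysis and the TCA cycle had 16 of 31 members higher and a median of 0.00, and none reached an unadjusted p under 0.05. The groups overlapped for all 10 genes of the HIF subunits and sensors: Hif1a had a log2 change of -0.06 and Epas1, the gene of HIF-2 alpha, of 0.06, and 0 of them reached an unadjusted p under 0.05.

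**Figure D2:**
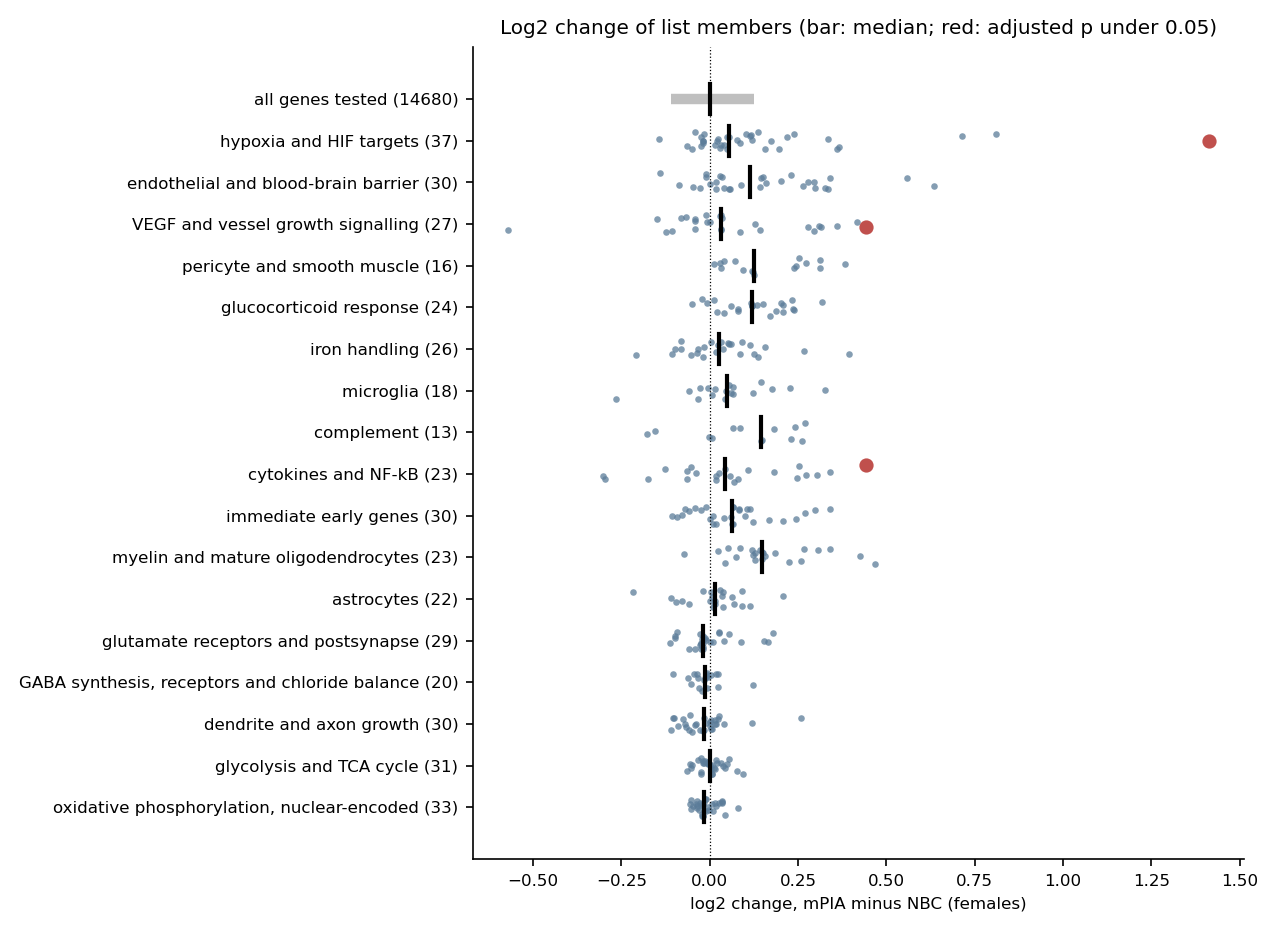
Log2 change, mPIA minus NBC females (horizontal axis), of each tested member of 17 gene lists (points; number tested in brackets), with the list median as a black bar and, in the top row, the middle 80% of all 14680 genes in grey. Adm and Cxcl12, the latter on 2 lists, are the red points past the adjusted threshold; most list medians lie within 0.15 of 0.

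Most genes of the vessel wall had positive changes that did not pass the test. Of 30 endothelial and blood-brain barrier genes, all tested, 23 were higher in mPIA, and their median log2 change was 0.11 (0.07 to 0.14 when each library was left out in turn). An unadjusted p under 0.05 was reached by 10, all higher (1.25% of all genes were), and in 5 all mPIA values lay above all NBC values (0.865% of all genes). None passed the adjusted threshold in edgeR. In bulk tissue more endothelial cells and more RNA per endothelial cell cannot be told apart.

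Kdr, the main signalling receptor of Vegfa, was at 43.6, 40.9, 42.1 and 47.2 CPM in NBC and at 54.8, 47.6, 56.0 and 51.4 CPM in mPIA (log2 change 0.28, SE 0.07, adjusted p = 0.865). The groups were separate, though NBC female 4 and mPIA female 2 lay almost level. Flt1, which binds the same ligand and limits its action, and Eng, a co-receptor for TGF-beta ligands, had log2 changes of 0.30 (SE 0.09) and 0.33 (SE 0.08), and in both NBC female 1 lay above mPIA female 4. Eng shares exon positions with Fpgs on the other strand. Ly6c1 and Ly6a, surface proteins of endothelial cells, had log2 changes of 0.30 (SE 0.07) and 0.56 (SE 0.13) with no overlap. Both have near copies in the Ly6 family, so their counts are uncertain. Vwf, the clotting factor stored in endothelial cells, stood at 15.7 to 29.8 CPM in NBC and at 34.03 to 43.55 CPM in mPIA, and the drug efflux pump gene Abcb1a at 22.3 to 26.0 and 26.8 to 29.2 CPM.

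Other markers of the cell type had changes near 0. The tight junction gene Cldn5 had a log2 change of -0.01, the junction scaffold gene Tjp1 0.02, the adhesion gene Esam 0.00, and the barrier transporter genes Slco1c1 and Mfsd2a -0.01 and 0.06. By role, the 8 receptors had a median of 0.21 and the 8 junction and adhesion genes one of 0.03; the difference between roles was not tested. Adgrl4, an adhesion receptor of endothelial cells that is not on the list, was at 25.7, 27.3, 25.3 and 26.0 CPM in NBC and at 35.5, 35.1, 32.9 and 29.0 CPM in mPIA. All mPIA libraries were above NBC (log2 change 0.35, SE 0.07, adjusted p = 0.464).

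Apelin and its receptor had changes of opposite sign, neither of which passed the test. Aplnr, the apelin receptor of growing vessels, had the smallest p among genes that were lower: it stood at 12.7, 11.32, 12.4 and 13.9 CPM in NBC and at 8.25, 6.70, 9.99 and 8.29 CPM in mPIA. Every mPIA pup was below every NBC pup (log2 change -0.57, SE 0.12, adjusted p = 0.443). Its ligand gene Apln had a log2 change of 0.31 (SE 0.09), with NBC female 2 inside the mPIA range. Among the 27 tested genes of vessel growth signalling 16 were higher. An unadjusted p under 0.05 was reached upward by 6 (1.25% of all genes were) and downward by 2 (0.777% of all genes). The 6 include Cxcl12 and Vegfa, and Vegfa was also counted among the HIF targets. Slc2a1, of the glucose group, was likewise counted among the endothelial genes. The counts of lists that share genes are not separate observations. Besides Aplnr, the lower gene was Nrp2, a co-receptor for VEGF-C and semaphorins (log2 change -0.15). Angpt2, which loosens vessel walls, had a log2 change of 0.42 at 3.69 to 4.75 CPM in NBC and 4.21 to 6.75 CPM in mPIA.

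All 16 tested pericyte and smooth muscle genes were higher in mPIA, with a median of 0.12, but 11 were without mPIA female 3, with a median of 0.05, and the median was 0.25 without NBC female 1. Abcc9 and Kcnj8 encode the 2 kinds of subunit of the potassium channel that sets pericyte and arteriole tone. Abcc9 stood at 15.8 to 17.4 CPM in NBC and 18.3 to 24.1 CPM in mPIA with no overlap (log2 change 0.31, SE 0.09; an antisense gene, 5330439B14Rik, overlaps it), and Kcnj8 had a log2 change of 0.25 (SE 0.15). Pdgfrb, the defining pericyte receptor, had one of 0.04. Of blood cell markers, the 4 haemoglobin genes were listed at 0 in every library, which the unstated handling of reads shared by near-identical copies could also give. The 9 erythroid genes with a row summed to 5.01 to 7.61 CPM in NBC and 6.89 to 19.01 CPM in mPIA, highest in mPIA female 3, and the 13 leukocyte and platelet genes with a row summed to 4.57 to 7.25 CPM.

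**Figure D3:**
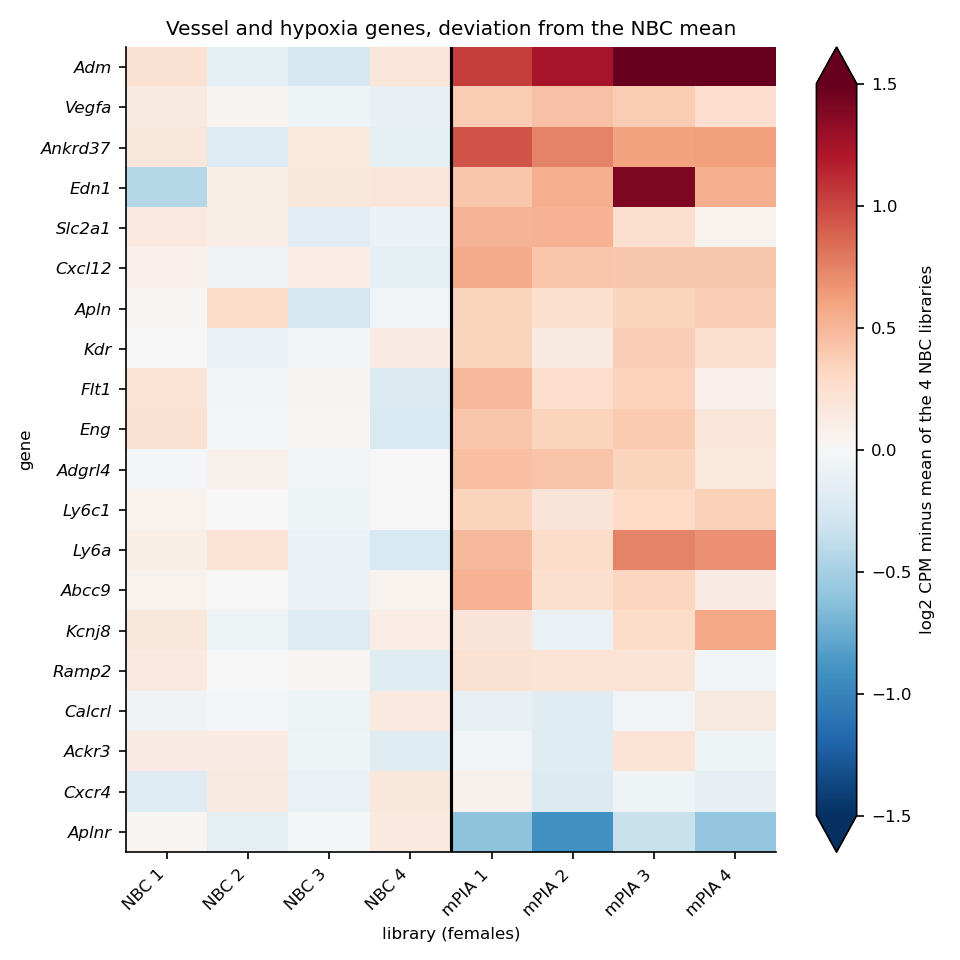
Log2 CPM of 20 vessel and hypoxia genes (rows) in the 8 female libraries (columns), as the difference from the mean of the 4 NBC libraries; red is higher, blue lower, and the colour scale ends at 1.5 in either direction. Adm is red in all mPIA columns, with 2 libraries past the end of the scale, and Aplnr is blue in all of them. The receptor genes Calcrl, Ackr3 and Cxcr4 show no common direction.

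Iron genes had 1 member that stood out from its list. Tfrc, the transferrin receptor through which cells import iron and whose mRNA is stabilised when cellular iron is low, stood at 234, 224, 236 and 315 CPM in NBC and at 329, 286, 339 and 371 CPM in mPIA. NBC female 4 exceeded mPIA female 2, so the groups overlapped (log2 change 0.39, SE 0.12, adjusted p = 1). Within prefixes 86, 90 and 91 the difference was 0.42, 0.52 and 0.24, and Tfrc was called with the prefix as a block (edgeR adjusted p = 0.0147) and without NBC female 4 (0.0359). Of the 26 tested iron genes 16 were higher, with a median of 0.03. The ferritin genes Fth1 and Ftl1, which store iron, had log2 changes of 0.05 and 0.00, and the exporter gene Slc40a1 one of -0.11. The summed level of the list did not overlap between groups (2454 to 2496 CPM in NBC and 2532 to 2662 CPM in mPIA). Tfrc and Fth1 make up much of that sum, so its non-overlap does not stand for a rise across the list, whose median was 0.03. Non-overlap was not particular to iron genes: the sum of the cytokine and NF-kB list was 430 to 454.3 CPM in NBC and 456.2 to 488.9 CPM in mPIA. That list holds Cxcl12, which alone stood at 62.0 to 73.2 CPM in NBC and 89.7 to 99.9 CPM in mPIA. Its sum is therefore not an observation separate from the call of Cxcl12.

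Alas2, which starts haem synthesis in red cell precursors, differed by a log2 change of 1.23 (SE 0.50, edgeR adjusted p = 1), or 0.58 without mPIA female 3, where it stood at 15.02 CPM against 4.39 to 6.50 in the other mPIA and 2.50 to 4.25 in the NBC libraries. Its exons overlap Apex2 on the other strand. Slc4a1, the anion exchanger of red cells, reached at most 1.05 CPM, also in mPIA female 3. Th, tyrosine hydroxylase, an iron-dependent enzyme of dopamine synthesis, stood at 0.601 to 0.992 CPM in NBC and at 1.11 to 1.48 CPM in mPIA, with no overlap (log2 change 0.69, SE 0.24, adjusted p = 1).

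**Figure D4:**
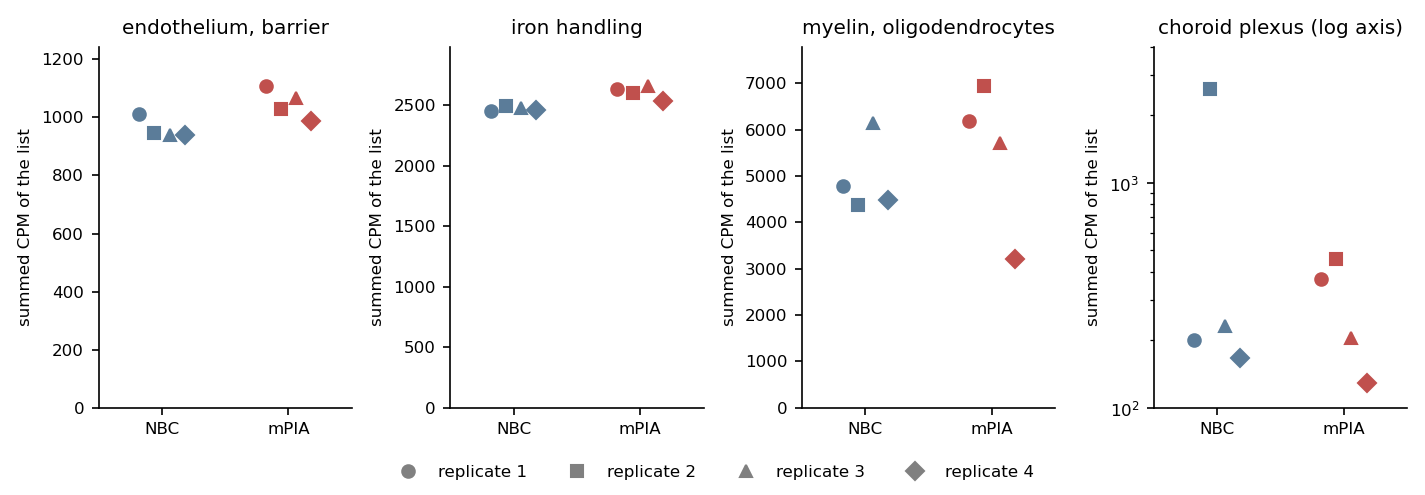
Summed CPM of 4 gene lists (vertical axes from 0, logarithmic for choroid plexus) in each NBC (blue) and mPIA (red) female library, with the replicate number as the symbol. The iron handling sum, of which Tfrc and Fth1 make up much, is higher in all 4 mPIA libraries. The endothelial sums overlap through NBC female 1, myelin spreads widely within both groups, and NBC female 2 stands alone in choroid plexus genes.

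Neuronal genes showed little difference at this depth. Of 29 glutamate receptor and postsynaptic genes 9 were higher (median log2 change -0.02), of 20 GABA genes 5 (-0.01), of 30 dendrite and axon genes 12 (-0.02) and of 20 markers of hippocampal excitatory neurons 10 (0.00). Without NBC female 1, NBC female 2 or mPIA female 1 the glutamate count was 14, and the GABA count was 9 without NBC female 2, 10 without mPIA female 3 and 3 without mPIA female 4. In these 4 lists 0 members passed the adjusted threshold and 1 reached an unadjusted p under 0.05: Tdo2, a tryptophan-degrading enzyme of dentate granule cells, with a log2 change of -0.43 (SE 0.16, adjusted p = 1). Defining markers of the tissue were present in both groups, with Slc17a7, the vesicular glutamate transporter of excitatory neurons, at 1624 to 1921 CPM in NBC and 1604 to 1679 CPM in mPIA, and Prox1, which defines granule cells, at 61.2 to 94.4 and 78.4 to 87.2 CPM.

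Bdnf, the neurotrophin of activity-dependent plasticity, had a log2 change of -0.09 (SE 0.07) with overlapping groups. Immediate early genes, which neuronal activity induces, were higher in 22 of 30 (median 0.06), but in 14 of 30 without mPIA female 3 (median -0.02). Arc and Fos, the best known of them, had log2 changes of 0.08 and 0.10 with overlapping groups. The deep cortical and subicular markers were higher in 10 of 12 with a median of 0.16, and in 6 of 12 without NBC female 2 (median 0.02); these neurons border the hippocampus, and the summed level of their genes lay at 996 to 1111 CPM in NBC and 1014 to 1105 CPM in mPIA. Nuclear-encoded genes of oxidative phosphorylation were higher in 10 of 33 (median -0.02), with 0 at an unadjusted p under 0.05; without NBC female 2 they were in 19 of 33 (median 0.0046), and without mPIA female 2 in 17 (0.0022).

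Among glial genes Aqp4, the water channel of astrocyte endfeet, had the smallest p. It stood at 218, 227, 231 and 224 CPM in NBC and at 197, 184, 202 and 190 CPM in mPIA. The groups were separate and the spread was small (log2 change -0.22, SE 0.05, edgeR adjusted p = 0.537, called by DESeq2). Of the 22 astrocyte genes tested 16 were higher, and Gjb6, a gap junction gene of astrocytes, had a log2 change of 0.21 (SE 0.09). Myelin and oligodendrocyte genes were higher in 22 of 23 with a median of 0.15, and 0 reached an unadjusted p under 0.05. Mbp, the gene of myelin basic protein, lay at 1494, 1351, 1934 and 1360 CPM in NBC and at 1946, 2187, 1757 and 930 CPM in mPIA, so that mPIA female 4 was the lowest of the 8 and 2 other mPIA pups were the highest. The median of the list was 0.03 without mPIA female 2 and 0.34 without mPIA female 4.

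Lists of inflammation held members of either sign. Ctss, a lysosomal protease of microglia, had a log2 change of 0.23 (SE 0.07) and did not overlap, and the interleukin 1 receptor gene Il1r1 one of 0.34 (SE 0.13) with no overlap. Of 18 microglial genes 13 were higher (median 0.05, or 0.00 without NBC female 4), of 13 complement genes 10 (0.15, or 0.03 without NBC female 4 or mPIA female 3) and of 23 cytokine and NF-kB genes 15 (0.04, or 0.01 without mPIA female 3), though 3 of the 8 cytokine receptors among them. In the list of interferon response and MHC class I 9 of 16 were higher (median 0.02), and 6 without mPIA female 3 (-0.02); of its 7 MHC class I genes 2 were. On the glucocorticoid list 21 of 24 genes were higher (median 0.12, 0.07 to 0.16 over single omissions). Of its 21 tested targets, which stress hormones raise, 20 were higher (median 0.13), and of its 3 receptors 1 was (-0.01). The smallest p among the targets were those of Cdkn1a, a cell cycle inhibitor (0.23, SE 0.08), and Tsc22d3, known as GILZ (0.19, SE 0.07). Of the genes on these 5 lists Cxcl12, described above, was the 1 past the adjusted threshold.

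Some of the genes with the smallest p were on none of these lists. Acer2 encodes an alkaline ceramidase of the Golgi that releases sphingosine; it stood at 8.66, 6.97, 5.29 and 7.10 CPM in NBC and at 17.8, 14.85, 11.8 and 10.3 CPM in mPIA. The groups did not overlap (1.95-fold, log2 change 0.97, SE 0.18, edgeR adjusted p = 0.464), and it was called by DESeq2 and with the code prefix as a block (0.00596). On the lower side stood Ap1g2, a subunit of a clathrin adaptor (log2 change -0.29), Tll1, a procollagen-cleaving protease (-0.35), and Tbx1, a T-box transcription factor (-0.53), each with an adjusted p of 1. Ap1g2 overlaps Thtpa on the other strand. In the tRNA synthetase gene Iars (log2 change -0.43), also on that side, and in its neighbour Nol8 (-0.63), mPIA females 2 to 4 were low and mPIA female 1 was as high as NBC. Nol8 stood at 31.1, 33.3, 34.6 and 33.8 CPM in NBC and at 32.4, 17.5, 18.8 and 17.4 CPM in mPIA.

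The difference of the anemia effect between females and males was tested over 15 libraries (the 8 females, 3 NBC males and 4 mPIA males). In edgeR no gene of 15227 passed, DESeq2 called 4, and 299 passed in edgeR when NBC male 2 was left out. An unadjusted p under 0.05 was reached in edgeR by 1388 genes (9.12%). That share is above the one that chance alone would give, so the lack of calls does not show equal effects in the sexes. In males the code series followed the groups, so series and anemia cannot be told apart there. The log2 change of Adm was 0.68 (SE 0.21, adjusted p = 0.0999) in males, and the difference, females minus males, was 0.72 (SE 0.30, adjusted p = 0.521). Male levels of Adm were 2.31 to 2.86 CPM in NBC and 3.70 to 4.21 CPM in mPIA, so the mPIA levels of the sexes overlapped and the NBC females lay below the NBC males. The changes of Cxcl12 and Vegfa were 0.33 and 0.28 in males, and Acer2 and Aplnr had 0.91 and -0.88. Kdr had 0.04 in males, a difference of 0.23 (SE 0.10, adjusted p = 0.534), and Ap1g2 was higher in mPIA males (0.68, edgeR adjusted p = 0.0316), a difference of -0.98 (SE 0.19, adjusted p = 0.275). Among the named genes Aqp4 (-0.64, edgeR adjusted p = 0.025), Eng (0.46, 0.0381) and 8430408G22Rik (1.48, 0.0381) also passed in males, each in the same direction as in females. The share of all genes that passed in males is not given here. These male calls are therefore not a replication of the female changes, and code series and anemia are confounded in them. Severely anemic females, whose libraries belong to another code series, held Adm at 2.87 to 6.43 CPM.

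**Figure D5:**
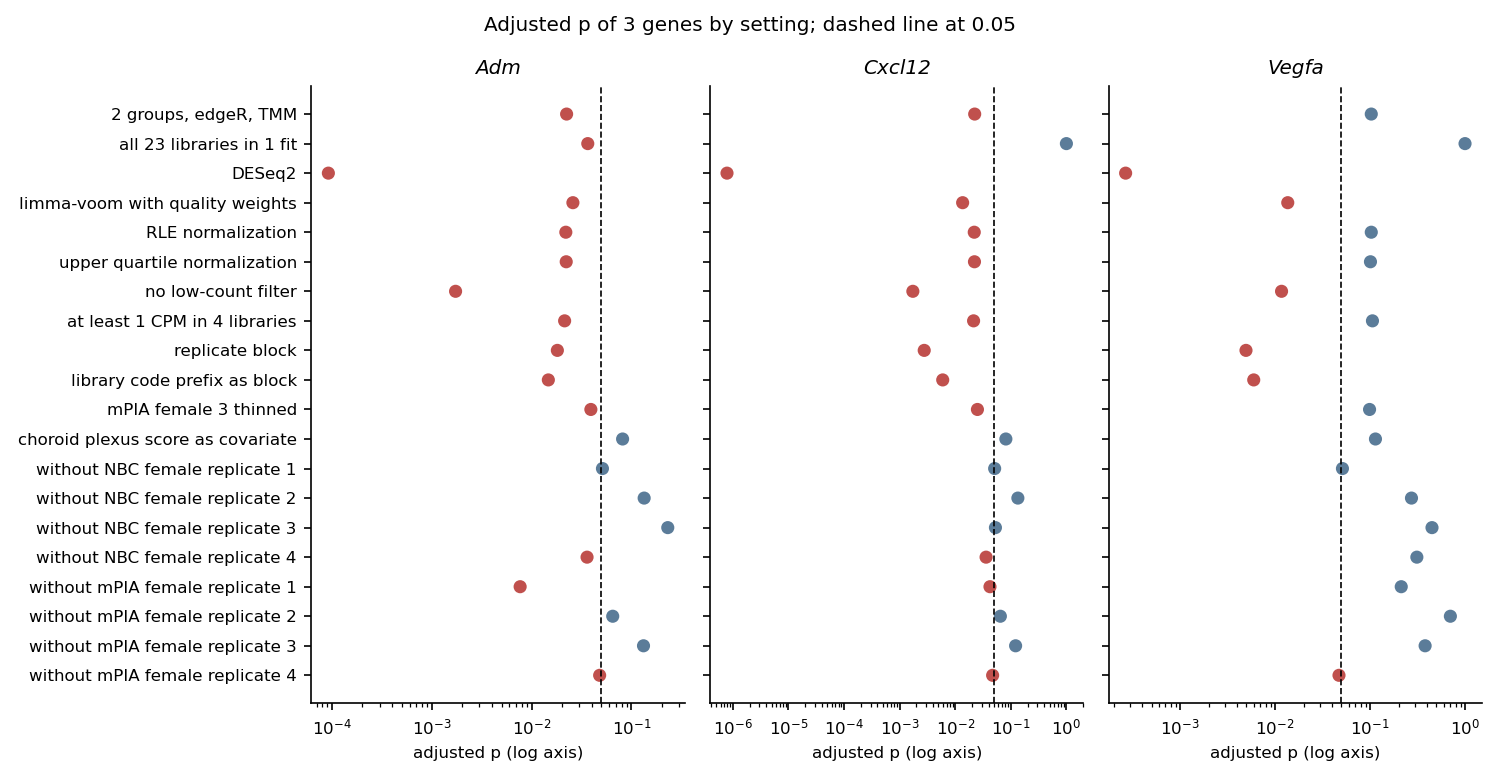
Adjusted p (horizontal axes, logarithmic) of Adm, Cxcl12 and Vegfa in mPIA against NBC females under the chosen fit (top row) and 19 alternatives; the dashed line is 0.05 and red points pass it. Adm and Cxcl12 pass in most fits that keep all 8 libraries and lose the call in 5 of the 8 fits that leave 1 out, while Vegfa passes in 6 of the 19.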

How the data were processed

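Per the labels' protocols, RNA isolation used Invitrogen's RNAqueous kit and library preparation followed Illumina TruSeq. The authors deposited raw read counts per gene: the values are whole and their library totals differ. Per the submitters' notes on processing, FastQC, TopHat2 2.0.13, Subread and edgeR were used with build mm10; for gene annotation, strand setting and multiply mapped reads the settings are not given in the sources used. The table has 24421 rows, of which 27 are named by a date (0.33% to 0.337% of counts); these stayed in library sizes and are not named.

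Only the 8 female libraries entered the fit, because the spread between pups in the other groups was larger. Counts were tested with edgeR 4.0.16 (R 4.3.3; robust quasi-likelihood, TMM, filterByExpr with a minimum count of 10 and total of 15), with Benjamini-Hochberg adjustment at 0.05. CPM used TMM-scaled totals, and log2 CPM a prior count of 2. The sex difference used 15 libraries. P-values set the difference between groups against the spread between these libraries, which the fit moderates over genes. That spread includes any difference between code prefixes, which the main fit did not model. On simulated counts (14602 genes) the test recovered 77% of 1.5-fold and 90% of 2-fold changes with 4.57% false calls. The simulation planted many changed genes, which eases the adjusted threshold, and held no difference between code prefixes or in choroid plexus content. Its shares therefore do not say how many such changes would be found in these data. Acer2, at 1.95-fold, had an edgeR adjusted p of 0.464 here. Limma 3.58.1 and DESeq2 1.42.0 served for alternatives, and figures were drawn with matplotlib 3.10.9.

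The comparison, its genes and the 38 gene lists (781 genes; 721 tested, 56 below the filter, 4 with no row) were chosen with earlier results of these data known. Lists are described by counts and medians and were not tested. Genes named were those past 0.05, Adm, Vegfa, Slc2a1, Tfrc and Bdnf, and up to 3 members of a list by smallest p. The 6 smallest p in each direction were also named, at an average log2 CPM of at least 1. Symbols ending in Rik and other provisional symbols were left out of that last choice. Named outside this rule, after their values were seen, were Flt1, Eng, Apln, Edn1, Cxcr4, Ackr3, Calcrl, Ramp3, Nol8, 8430408G22Rik and the list members given as examples. Not all genes the rule took are reported here. Positions are of whole genes in GENCODE M21 (mm10, also called GRCm38), whose symbols matched 95.6% of rows.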

Additional observations from a re-analysis of the deposited data

Results flagged for a closer look

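Of 164 sets of 4 libraries examined, 14 had 1 library far from the other 3 relative to the range (Dixon ratio above 0.829); chance gives about 1 in 20 sets. In NBC, female 4 was high in Tfrc (315 CPM, others 224 to 236), female 1 in the endothelial sum (1011 CPM, others 939 to 945) and in the deep cortical and subicular sum (1111 CPM, others 996 to 1001). NBC female 2 was high in the sum of hippocampal excitatory neuron genes (3562 CPM, others 3230 to 3278) and in choroid plexus genes (2590 CPM, others 166 to 231), and NBC female 3 was low in astrocyte genes (8598 CPM, others 8743 to 8756). In mPIA, female 3 had a library total of 44.4 M counts (others 16.5 to 20) and Edn1 at 8.11 CPM (others 4.1 to 4.51).

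Of the 14, 4 belonged to mPIA female 1: Cxcl12 at 99.9 CPM (others 89.7 to 90.2), Iars at 77.6 CPM (others 52.7 to 53.5), Nol8 at 32.4 CPM (others 17.4 to 18.8) and Ramp3 at 5.55 CPM (others 2.97 to 3.02). Ramp2 was low in mPIA female 4 (22.9 CPM, others 27.1 to 27.7), and the glycolysis and TCA cycle sum was high in mPIA female 2 (11123 CPM, others 10889 to 10923).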

How the results depend on the processing

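The count of 2 genes became 1 in a fit over all 23 libraries (Adm), 9 in DESeq2, 6 with a replicate block, 6 with the library code prefix as a block and 0 with a choroid plexus score as a covariate, and 0 to 5 when 1 library was left out. Adm kept its direction throughout; with the choroid plexus score its log2 change was 1.32 (edgeR adjusted p = 0.0815), and over single omissions 1.30 to 1.52. The sex difference had 0 calls in most fits, 4 in DESeq2 and 0 to 299 over single omissions. Ackr3 changed sign with limma-voom (0.055), with the choroid plexus score (0.014) and over single omissions (-0.10 to 0.040), and Ramp3 over single omissions (-0.0023 to 0.50). The cause was not tested. Same-numbered NBC and mPIA libraries correlated over genes at 0.166, 0.00901, 0.137 and 0.171, and number 2 did not correlate best with its own number; since 1 pair was under 0.1, the samples were taken to share only a number, although same-numbered libraries also share a code prefix; the replicate block called Adm, Cxcl12, Vegfa, Acer2, Tfrc and Slc2a1. Weakly expressed genes such as Adm rest on few counts, and 4 pups a group limit what small changes could pass.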

Other observations

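Nol8 and Iars lie 3084 bases apart on the same strand of chromosome 13 (49653078 to 49679016 and 49682100 to 49734267, mm10). Over all 23 libraries of the series Nol8, scaled to total counts, took no value between 21.7 and 30.9 CPM: 10 libraries lay at 17.3 to 21.7 CPM and 13 at 30.9 to 42.9 CPM. The same 10 libraries held Iars at 43.7 to 64.2 CPM and the other 13 at 73.4 to 88.3 CPM, so the libraries below the gap were the same for both genes. They comprised 0 of 4 NBC females, 3 of 4 mPIA females, 2 of 4 severely anemic females, 1 of 3 NBC males, 3 of 4 mPIA males and 1 of 4 severely anemic males. The 2 levels were thus present in 5 of the 6 groups. Without mPIA female 1, the 1 female of its group above the gap, edgeR called both genes lower (adjusted p = 9.02e-05 for Nol8 and 0.000924 for Iars), which made them 2 of the 5 genes called in that fit. What sets the level was not tested.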
